A study of Mus musculus with 2 samples.

Results

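Zbtb16, Sall1, Sall4 and Kit are 4 genes of the switch between self-renewal and differentiation in spermatogonia, out of 13820 genes compared between a wild-type and a Dnmt3l knockout library. They were chosen by name, with earlier results of these data known. Their transcripts are all RefSeq transcripts of each gene plus the transcript models assembled from the reads of a library that lie on the same strand over its exons and are 300 nt or longer. That gave 11 transcripts and models in wild-type RNA and 10 in knockout RNA, and no model under 300 nt fell on these genes. The RNA came from spermatogonial progenitor cells of C57BL/6 mouse testes at 8 days after birth, and the groups were wild-type and Dnmt3l knockout, with 1 library each. How many animals were pooled and how the cells were purified are not given in the sources used here. DNMT3L has no methyltransferase activity of its own and works with the enzymes that set new DNA methylation, and the series title names its role in progenitor quiescence. With 1 library per genotype no difference could be tested, and every value describes these libraries. Values are FPKM, a fragment measure normalised to the length of the transcript and the size of the library. The range after the value of a transcript is the lower and upper bound deposited with it. For a gene it is the sum of those bounds over its transcripts, which need not be the bounds of the sum. Either range covers the estimate within the library and not the spread between animals.

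Zbtb16 encodes PLZF, a zinc finger repressor that carries a BTB domain and is needed to keep spermatogonial progenitors undifferentiated. Sall4 and Sall1 encode zinc finger factors of the spalt family, which recruit the NuRD deacetylase complex through a motif at their amino end. SALL4 and PLZF can bind each other in progenitors. Kit encodes the receptor tyrosine kinase for KIT ligand. PLZF represses Kit, and the appearance of KIT marks the step to differentiating spermatogonia.

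Both SALL4 and KIT are made in several splice forms, and those forms carried much of what differed between the libraries. The Kit forms differ at the end of exon 9, where NM_001122733 holds 12 bases more than NM_021099 (chr5:75639147-75639158, plus strand, mm10). These bases encode the short insert of the extracellular part that separates the forms known as GNNK+ and GNNK-. The junction with exon 10 is shown for both, with the extra bases in capitals, from the GENCODE M21 transcripts (GRCm38, the same build).
NM_001122733: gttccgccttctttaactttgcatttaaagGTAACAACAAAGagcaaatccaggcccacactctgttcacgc
NM_021099: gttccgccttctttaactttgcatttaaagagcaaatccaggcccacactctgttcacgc

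The Sall4 forms differ in exon 2 (chr2:168754434-168756800, minus strand), an exon of 2367 nt that holds 73.9% of the coding bases and most of the zinc finger clusters. NM_175303 contains all of it, NM_201395 its first 1035 nt, and NM_201396 none of it. The length of the exon is a multiple of 3, so skipping it keeps the reading frame. The joins on either side of the exon and the join that skips it are shown 5′ to 3′ on the gene strand, with bases of exon 2 in capitals.
NM_175303 exon 1 to exon 2: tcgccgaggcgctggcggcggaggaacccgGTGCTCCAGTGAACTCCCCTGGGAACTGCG
NM_175303 exon 2 to exon 3: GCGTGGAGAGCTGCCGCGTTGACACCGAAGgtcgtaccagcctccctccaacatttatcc
NM_201396 exon 1 to exon 3: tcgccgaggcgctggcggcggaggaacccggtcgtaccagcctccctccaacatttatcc

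Dnmt3l itself was at 1.67 FPKM (0.791 to 2.68) in wild-type RNA and listed at 0 in knockout RNA. An estimate of 0 can also be a failed one, since Cnot1, a gene every cell uses, was at 82.4 FPKM in wild-type RNA and listed at 0 in knockout RNA. Counts and depth are not in the files, and the coverage per FPKM was 1.10 times higher in knockout RNA. Over the 12517 genes that reached 1 FPKM in each library the median log2 ratio was 0.21. The ratio was lower for long transcripts, with a median of 0.54 over 1221 genes under 1000 nt and -0.13 over 1690 genes from 5000 nt to below 8000 nt, and the longest RefSeq transcripts of Zbtb16, Sall1, Sall4 and Kit span 5073 to 5257 nt.

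Zbtb16, Sall1 and Kit were lower in knockout RNA and Sall4 was slightly higher when all transcripts of a gene were summed. Zbtb16 was at 55.4 FPKM (52.8 to 58.0) in wild-type RNA and 27.9 FPKM (26.1 to 29.6) in knockout RNA. Sall4 was at 38.9 (36.6 to 41.5) and 46.5 FPKM (43.1 to 49.97). The summed bounds of the libraries did not overlap for either gene. Kit was at 21.7 FPKM (19.8 to 23.5) in wild-type RNA and 5.93 FPKM (5.38 to 6.51) in knockout RNA. Sall1 was at 16.9 (15.001 to 18.9) and 5.62 FPKM (4.89 to 6.35). Thus Kit was 3.66-fold, Sall1 3.02-fold and Zbtb16 1.99-fold lower, and Sall4 1.19-fold higher, as ratios of FPKM.

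**Figure D1:**
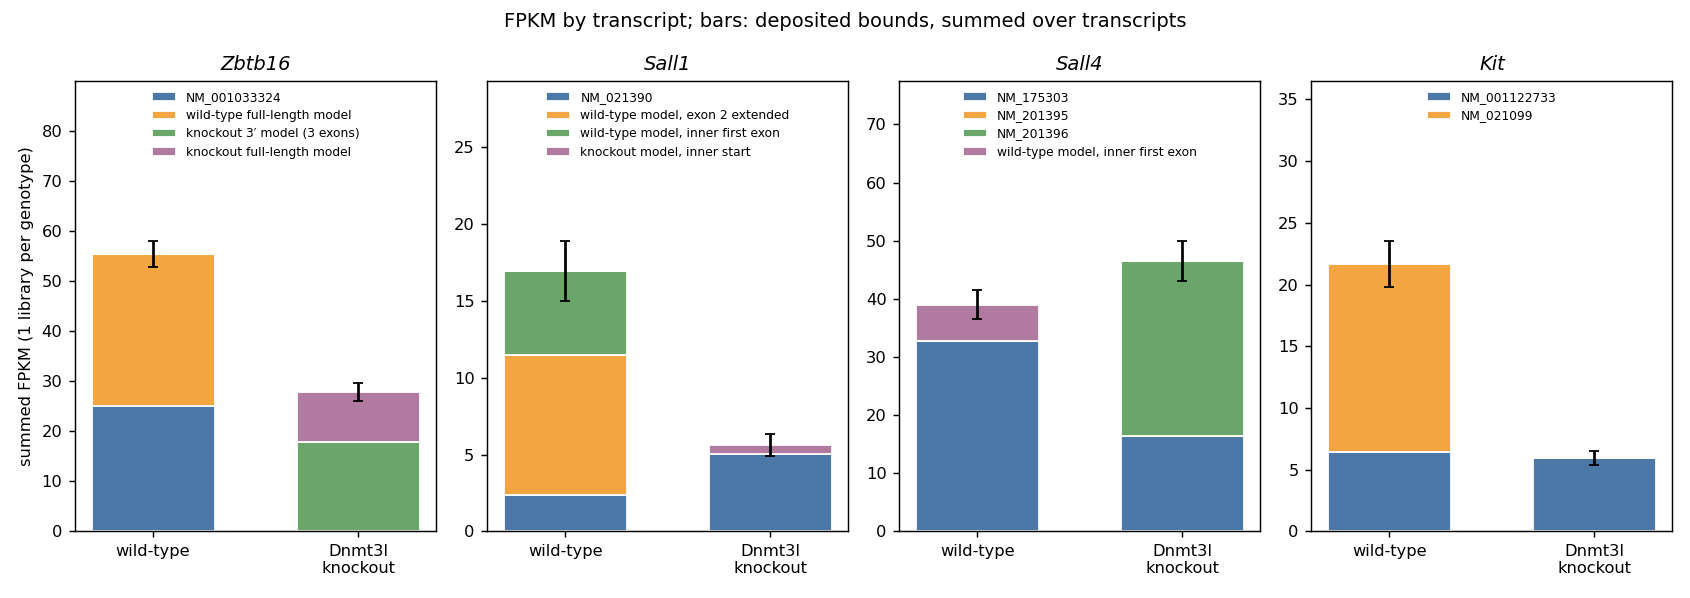
Summed FPKM of Zbtb16, Sall1, Sall4 and Kit in the wild-type and Dnmt3l knockout libraries, stacked by transcript, with the summed deposited bounds as error bars (1 library per genotype). Kit was at 21.7 and 5.93 FPKM, and the blue part, NM_001122733, was at 6.42 and 5.93.

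On the scale of log2((knockout FPKM + 1)/(wild-type FPKM + 1)), which understates differences of low genes, the ratios were -1.71 for Kit, -1.44 for Sall1, -0.97 for Zbtb16 and 0.25 for Sall4. At least 2-fold lower on that scale were 2 of the 4 genes, Kit and Sall1, against 3.49% of all genes compared. For 3 of 4 the knockout upper bound lay below the wild-type lower bound, as it did for 16.2% of all genes, and for Sall4 the bounds lay apart in the other direction, as for 35.4%. Some genes in these shares had values outside their own bounds, such as Rbbp4 (176.2 FPKM, bounds 157.8 to 172.6, in wild-type RNA). The values of the 4 genes lay within theirs. Relative to the median gene the log2 ratios were -1.92 for Kit, -1.64 for Sall1, -1.17 for Zbtb16 and 0.05 for Sall4. At the exon level, which averages the summed FPKM over RefSeq exon bases, 3 of 4 were at least 2-fold lower (Kit, Sall1 and Zbtb16, with log2 ratios of -1.71, -1.41 and -1.33), against 2.95% of all genes, and none was 2-fold higher, against 4.87%. By the measure relative to the median gene, 5.41% of all genes were at least 2-fold lower, the same 3 members among them.

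**Figure D2:**
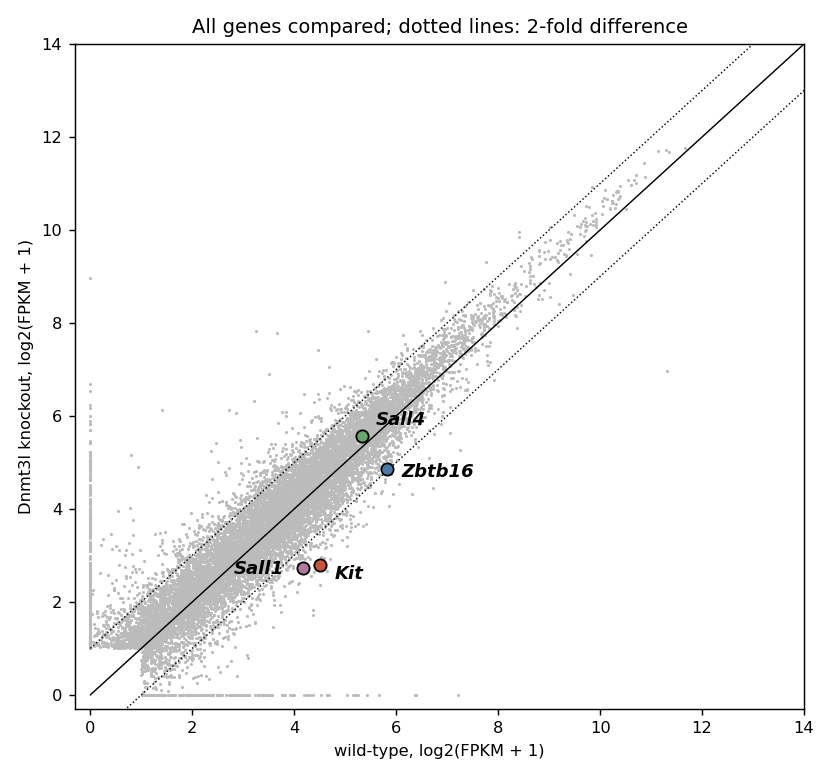
Each grey point is 1 of the 13820 genes compared, by log2(FPKM + 1) in wild-type RNA (horizontal) and the Dnmt3l knockout library (vertical); the solid line marks equal values and the dotted lines a 2-fold difference. Kit and Sall1 lie below the lower dotted line, Zbtb16 lies just above it at a log2 ratio of -0.97, and Sall4 lies near the line of equal values.

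The order of the 4 genes differed between the libraries. In the wild-type library the levels fell in the order Zbtb16, Sall4, Kit and Sall1, with no overlap of bounds between neighbours. In the knockout library Sall4 came first and Zbtb16 second, while the bounds of Kit and Sall1 overlapped. The level of Sall4 was 0.702 times that of Zbtb16 in wild-type RNA and 1.67 times in knockout RNA. Averaged over exon bases, the same ratios were 0.708 and 1.54. Kit stood at 0.391 times the level of Zbtb16 in wild-type RNA and 0.213 times in knockout RNA.

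The difference in Kit was listed almost wholly under the form without the insert. NM_021099, which lacks the 12 bases, was at 15.3 FPKM (14.2 to 16.3) in wild-type RNA and listed at 0 in knockout RNA, with an upper bound of 0.0225. NM_001122733, which has them, was at 6.42 FPKM (5.64 to 7.20) and 5.93 FPKM (5.38 to 6.49), and these bounds overlap. The form without the insert therefore made up 70.4% of Kit in wild-type RNA and none of it as listed in knockout RNA. Cufflinks marked all introns and inner exons of NM_021099 as covered by reads in wild-type RNA but not in knockout RNA, and those of NM_001122733 in both. Apart from 4 bases at the 5′ end, these forms differ only by the 12 bases, so the split rests mainly on the fragments that reach them. Their coverage was 48.2 and 20.3 in wild-type RNA and 0 and 20.7 in knockout RNA, in the order NM_021099 and NM_001122733. Among 2138 genes with 2 or more RefSeq transcripts and 5 FPKM or more in both libraries, the highest RefSeq transcript of the wild-type library was listed at 0 in knockout RNA for 7.58%.

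Kit spans chr5:75574987-75656721 on the plus strand with 21 exons, and no model was assembled there in either library. Both of its forms are full-length, so the deposited values cannot show a difference along the transcript. No other transcript or model of either strand overlapped the RefSeq span of Kit, Zbtb16, Sall1 or Sall4. Parts of the assembled Zbtb16 and Sall4 models that lie beyond those spans were not searched.

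Sall4 (chr2:168748332-168767201, minus strand) differed in its forms more than in its sum. The full-length form NM_175303 was at 32.8 FPKM (31.2 to 34.6) in wild-type RNA and 16.4 FPKM (15.2 to 17.6) in knockout RNA. NM_201396, which skips exon 2, was listed at 0 in wild-type RNA, with an upper bound of 0.0488, and at 30.1 FPKM (27.8 to 32.3) in knockout RNA. NM_201395 was listed at 0 in both. In the knockout library the form without exon 2 thus made up 64.7% of the summed FPKM and the full-length form 35.3%. Cufflinks did not mark NM_201396 as fully covered by reads in knockout RNA, where it carried its whole value, and did so in wild-type RNA, where it was listed at 0. Of 2117 genes with 2 or more RefSeq transcripts and 5 FPKM or more in both libraries, 8.17% had as their highest RefSeq transcript of the knockout library one listed at 0 in wild-type RNA.

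In the summed FPKM of its forms, the direction of the difference in Sall4 depended on the exon. These exon levels follow from the form values above and are not separate read coverage. Over exon 2, which encodes most zinc fingers, the summed level was 38.9 FPKM in wild-type RNA and 16.4 FPKM in knockout RNA, 2.37-fold lower. Over exon 3 and the last exon it was 38.9 and 46.5 FPKM. Exon 1, which holds the start codon, was at 32.8 and 46.5 FPKM. Averaged over all coding bases the levels were 38.7 and 24.3, a log2 ratio of -0.65, whereas the summed FPKM gave 0.25. A further wild-type model of 5823 nt at 6.10 FPKM (5.42 to 6.78) had its own first exon of 862 nt inside intron 1, and no such model was assembled in knockout RNA.

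**Figure D3:**
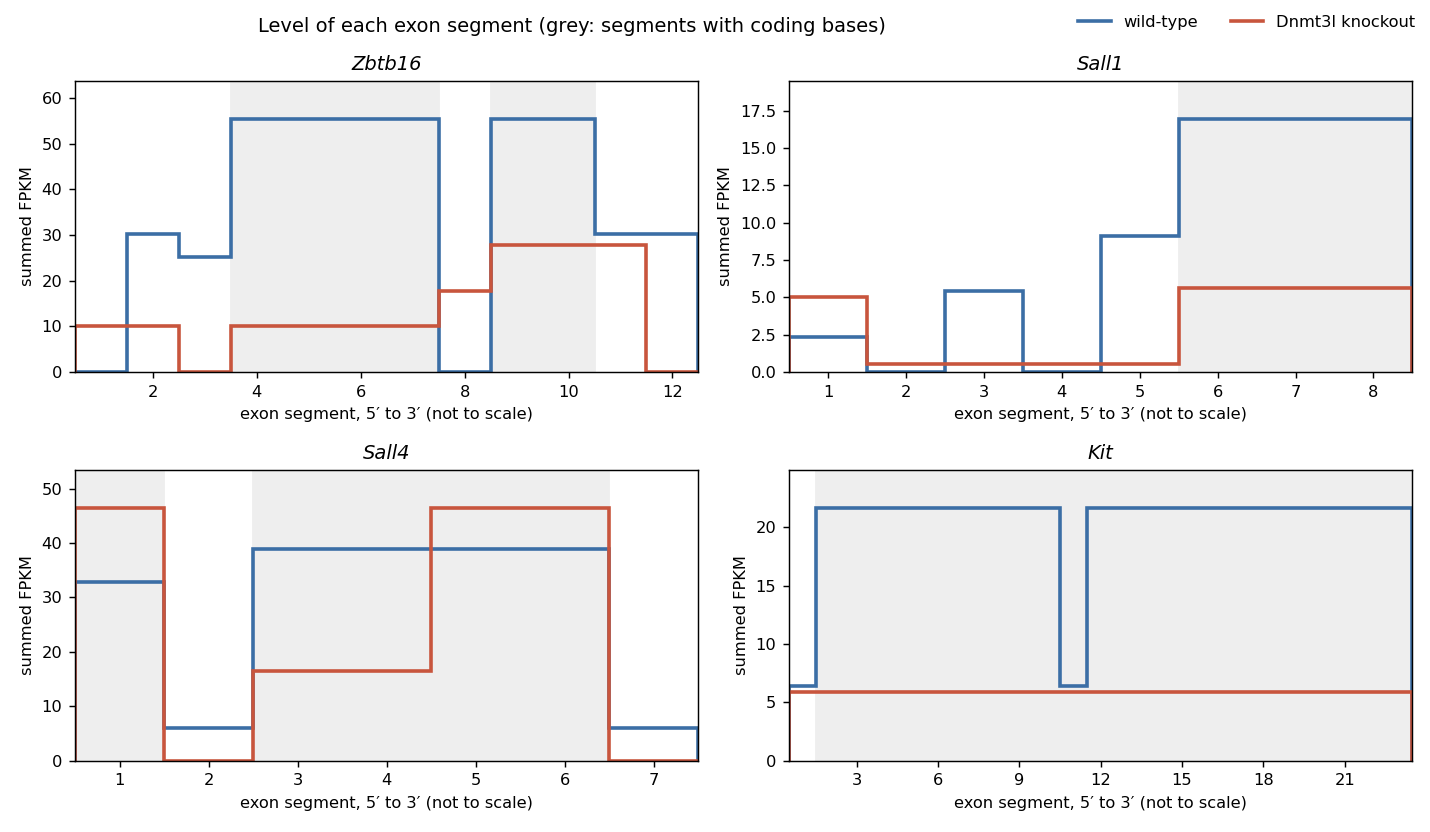
Summed FPKM of all transcripts that cover each exon segment, in order from 5′ to 3′ and not to scale, for the wild-type (blue) and Dnmt3l knockout (red) libraries; grey marks segments with coding bases. In Sall4 the lines cross, with exon 2 (segments 3 and 4) at 38.9 and 16.4 FPKM, and in Zbtb16 the upstream coding exons stand at 55.4 and 10.02 FPKM.

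Zbtb16 (chr9:48654297-48835945, minus strand) was lower throughout its coding exons, and more so at the 5′ side. The RefSeq transcript NM_001033324, of 7 exons, was at 25.1 FPKM (23.6 to 26.6) in wild-type RNA and listed at 0 in knockout RNA, with an upper bound of 0.0227. Of 6635 genes with 1 RefSeq transcript and 5 FPKM or more in both libraries, 4.42% had that transcript above 0 in wild-type RNA and listed at 0 in knockout RNA. Each library also held an assembled full-length model with the same 5 inner exons and another first exon. This model was at 30.3 FPKM (29.2 to 31.4) in wild-type RNA and 10.02 FPKM (9.27 to 10.8) in knockout RNA. Its first exon is noncoding and began 72 nt upstream of a start annotated in GENCODE in wild-type RNA and 126 nt upstream of it in knockout RNA. Its last exon ran on for 2456 nt or more beyond the RefSeq end in both libraries.

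The knockout library held another Zbtb16 model, with 3 exons and 17.8 FPKM (16.8 to 18.8), that covers only the 3′ side. It joins the last 2 RefSeq exons to an exon of 60 nt that lies in an intron of NM_001033324 (chr9:48661529-48661588) and is in no RefSeq transcript of the files. It was 64.0% of the Zbtb16 sum of that library. The 4 RefSeq coding exons upstream of it, with 80.4% of the coding bases, including those of the BTB domain, were at 55.4 and 10.02 FPKM, 5.53-fold lower. The 2 exons it shares were at 55.4 and 27.9 FPKM, 1.99-fold lower. Over the 2456 nt beyond the RefSeq end, which all assembled Zbtb16 models cover, the levels were 30.3 and 27.9 FPKM, 1.09-fold lower. Averaged over all coding bases the Zbtb16 level was 55.4 in wild-type RNA and 13.5 in knockout RNA. These exon levels also sum the FPKM of the transcripts and models and are not read coverage.

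A lower knockout to wild-type ratio at the 5′ than at the 3′ end was common among long genes in these libraries. Over 4074 genes of 3000 nt or more and 5 FPKM or more in both libraries, the log2 ratio at the 5′ end minus that at the 3′ end had a median of -0.08, with quartiles of -0.78 and 0. These end levels sum the FPKM of the transcripts and models that cover each end and are not read coverage. For Zbtb16 it was -1.48, and 9.40% of these genes had a lower value. For Sall4 it was -0.80, with 24.7% lower. For Sall1 it was 0.15, with 87.9% lower.

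Sall1 was lower in knockout RNA over its whole coding sequence, while its outermost first exon was higher. The coding exons were at 16.9 FPKM in wild-type RNA and 5.62 FPKM in knockout RNA. NM_021390 (chr8:89027243-89044162, minus strand), whose first exon is noncoding, was at 2.36 FPKM (1.91 to 2.82) and 5.05 FPKM (4.54 to 5.57), respectively, and Cufflinks did not mark it as fully covered by reads in knockout RNA. The rest of the wild-type level lay in 2 assembled models that start further inside. One, at 9.14 FPKM (8.30 to 10.001), begins 57 nt upstream of the second RefSeq exon and runs into it, and the other, at 5.44 FPKM (4.79 to 6.08), has a first exon of 34 nt. The knockout library held 1 inner model, at 0.567 FPKM (0.354 to 0.782). Transcripts that start inside NM_021390 were thus 53.96% and 32.1% of Sall1 in wild-type RNA and 10.1% in knockout RNA.

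The inner starts of Sall1 lie near a start that RefSeq annotates at position 89042862. The knockout model began 14 nt upstream of it, and the wild-type models 111 and 361 nt downstream. All 3 keep the annotated coding sequence, which begins in the second exon of NM_021390. The 250 bases before the outer and the inner RefSeq start are shown, since the libraries differed in how the Sall1 level was divided between NM_021390 and the inner models. They come from the RefSeq promoter table (GRCm38.p6) and are on the gene strand, with each CG dinucleotide, the site of DNA methylation, in capitals.
Sall1 outer start, chr8:89044163-89044412: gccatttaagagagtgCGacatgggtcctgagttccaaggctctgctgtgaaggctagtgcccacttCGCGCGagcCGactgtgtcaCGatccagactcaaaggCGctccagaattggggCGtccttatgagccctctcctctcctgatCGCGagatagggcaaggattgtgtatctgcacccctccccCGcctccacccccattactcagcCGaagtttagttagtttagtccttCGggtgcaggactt
Sall1 inner start, chr8:89042863-89043112: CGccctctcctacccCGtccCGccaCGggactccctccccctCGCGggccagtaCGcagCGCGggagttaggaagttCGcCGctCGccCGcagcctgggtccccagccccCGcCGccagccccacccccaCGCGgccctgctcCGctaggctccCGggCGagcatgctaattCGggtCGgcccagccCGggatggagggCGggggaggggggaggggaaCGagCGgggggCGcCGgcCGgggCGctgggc
The outer sequence holds 13 CG dinucleotides and the inner one 30, read on 1 strand since CG reads the same on both. At least 13 were found in 31.5% and at least 30 in 5.94% of 32851 promoter sequences of that length, whose median was 6, and 92.1% held at least 1. A further RefSeq start lies between them at position 89043512, and the 250 bases before it, not printed, hold 25 CG dinucleotides, with at least as many in 10.7% of the promoter sequences. Methylation was not measured in these files. Of the 4 genes, Sall1 and Kit had entries in that table.

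Of the remaining spalt genes, Sall2 was at 2.37 and 3.11 FPKM and Sall3 at 1.33 and 1.92 FPKM in wild-type and knockout RNA. Sall1 was the 1 family member of 4 at least 2-fold lower, against 3.49% of all genes. The NuRD complex, through which SALL proteins repress, was measured in full with 13 of 13 genes. On the log2(FPKM + 1) scale none was at least 2-fold lower or higher, against 3.49% and 7.67% of all genes. Relative to the median gene, Gatad2b was at least 2-fold lower (-1.02), against 5.41% of all genes. The median log2 ratio of the complex was 0.16, against 0.22 over all genes. Its largest differences went both ways, with Gatad2b at 29.0 and 15.98 FPKM and Mta3 at 32.0 and 57.0 FPKM, followed by Gatad2a at 58.8 and 85.0 FPKM. The ATPase gene Chd4 was at 119.3 and 103.9 FPKM.

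Corepressors and cofactors of PLZF were measured for 12 of 12 genes. On the log2(FPKM + 1) scale none was at least 2-fold lower or higher, near the 3.49% and 7.67% of all genes. Their median was 0.40 for summed FPKM and -0.06 at the exon level, so its sign depended on the measure. Rara, the retinoic acid receptor gene, was at 14.9 and 28.1 FPKM. Bmi1, a Polycomb gene, was at 29.2 and 17.6 FPKM, and the deacetylase gene Hdac3 at 41.7 and 68.1 FPKM. Epc1 had a log2 ratio of 0.71 in summed FPKM and -0.04 at the exon level.

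The ligand of KIT and the proximal parts of its signalling were measured for 25 of 25 genes. On the log2(FPKM + 1) scale 1 was at least 2-fold lower and none higher, against 3.49% and 7.67% of all genes. The lower gene was Cbl, a ubiquitin ligase that ends receptor signalling, at 13.1 FPKM (12.6 to 13.7) in wild-type RNA and 3.34 FPKM (2.71 to 3.97) in knockout RNA. Kitl, the ligand, was at 10.01 (8.64 to 11.4) and 5.21 FPKM (4.42 to 6.01), a log2 ratio of -0.83. The kinase gene Yes1 was at 7.05 and 3.49 FPKM. Relative to the median gene, Kitl (-1.03) and Yes1 (-1.05) were also at least 2-fold lower, against 5.41% of all genes on that scale. Ptpn6, a phosphatase gene that leukocytes also express, was at 7.41 and 15.3 FPKM (0.95 on the log2(FPKM + 1) scale). The list had a median of 0.19, and the adaptor gene Grb2 was at 27.5 and 34.5 FPKM. Among the other class III receptor genes, relatives of Kit, Pdgfra was at 41.7 and 37.8 FPKM, Pdgfrb at 10.04 and 11.8 FPKM and Csf1r, a macrophage receptor, at 34.1 and 55.2 FPKM.

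SOHLH1 and SOHLH2 are transcription factors of differentiating spermatogonia. Sohlh1 was at 102.1 and 89.6 FPKM and Sohlh2 at 33.9 and 19.5 FPKM in wild-type and knockout RNA. Of the differentiating spermatogonia list, 12 of 14 genes were measured, with a median of -0.36, and Kit was the 1 gene at least 2-fold lower, against 3.49% of all genes. Stra8, a gene induced by retinoic acid, was at 121.0 and 95.3 FPKM. Dmrt1 was at 148.5 and 123.7 FPKM, values that lie above their own deposited upper bounds in both libraries. Without Kit the median of the other 11 was -0.34. Dmrtb1, at 8.75 and 4.78 FPKM, and Elavl2, at 13.04 and 8.19 FPKM, were among the lower members. Higher in knockout RNA were Esx1 (7.01 and 10.8 FPKM), Rhox13 (8.79 and 11.8 FPKM) and Rarg (16.6 and 20.9 FPKM).

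Undifferentiated spermatogonia genes, the list to which Zbtb16 and Sall4 belong, had a median of 0.03 over 22 of 22 measured. On the log2(FPKM + 1) scale at least 2-fold lower were Itga6 (24.9 and 10.6 FPKM) and Neurog3 (9.63 and 4.06 FPKM), and Id4 was the 1 gene at least 2-fold higher (14.4 and 34.99 FPKM), against 3.49% and 7.67% of all genes. At the exon level Itga6 was at -0.83 and no longer 2-fold lower, and Zbtb16 was, against 2.95% of all genes. Relative to the median gene Zbtb16 and Pou3f1 (-1.02) were also at least 2-fold lower, against 5.41% of all genes. Nanos2 had a log2 ratio of 0.92, Pou3f1 was at 8.997 and 4.69 FPKM, and Taf4b, a germ cell subunit of a general transcription factor, was at 26.99 and 15.7 FPKM. Gfra1 (27.4 and 48.5 FPKM) and Cdh1 (4.72 and 8.56 FPKM) were higher in knockout RNA. Of the 22, 13 lay below the median gene and 9 above it. The germ cell identity list had a median of 0.22 over 11 of 11, equal at this rounding to that of all genes. Within it the RNA-binding protein gene Dazl was at 222.6 and 136.7 FPKM and the helicase gene Ddx4 at 138.9 and 122.7 FPKM. The largest difference of the list was that of Rbmxl2, which was higher in knockout RNA (23.7 and 42.7 FPKM). Of the 11, 5 lay below the median gene and 6 above it. All 11 germ cell genes were thus measured in both libraries.

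**Figure D4:**
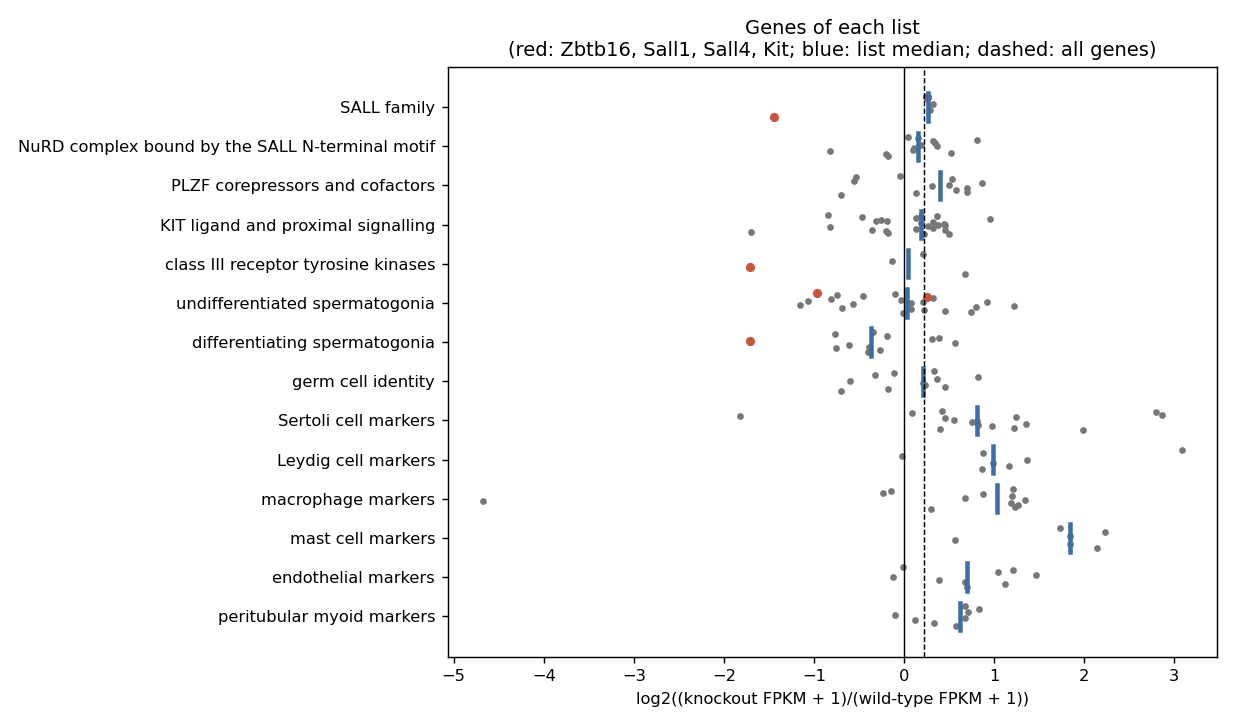
Log2((knockout FPKM + 1)/(wild-type FPKM + 1)) of each measured gene, by list; red points are Zbtb16, Sall1, Sall4 and Kit, blue bars list medians, the dashed line the median of all genes (0.22). Kit and Sall1 lie left of the other members of their lists, whereas markers of somatic and mast cells lie mostly to the right, with medians of 0.62 to 1.84.

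Summed levels of markers of other testis cells were higher in knockout RNA. Their summed levels in wild-type and knockout RNA were 622.9 and 1363 FPKM for 16 Sertoli cell markers, 75.1 and 170.8 FPKM for 8 Leydig cell markers, and 559.2 and 1093 FPKM for 12 macrophage markers. They were 59.6 and 120.0 FPKM for 9 endothelial and 324.7 and 502.7 FPKM for 8 peritubular myoid markers. At least 2-fold higher were 6 of 16 measured Sertoli, 3 of 7 Leydig, 6 of 12 macrophage, 4 of 9 endothelial and 0 of 8 myoid markers, against 7.67% of all genes. At least 2-fold lower were the Sertoli marker Inhba (6.17 and 1.03 FPKM) and the macrophage marker Cd68, against 3.49%. Lhcgr, Ptprc, Mrc1, Kdr, Tek and Myh11 also had log2 ratios below 0, from -0.23 for Mrc1 to -0.01 for Tek. Of the defining genes, Tsx and Srd5a1 were listed at 0 in wild-type RNA, Cd68 in knockout RNA and Star in both. Their part in the lower Zbtb16, Sall1 and Kit values was not tested. In bulk RNA fewer cells of a type and less RNA per cell cannot be told apart.

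Leydig cells and mast cells also express Kit, and the summed markers of both were higher in the library where Kit was lower. The 8 mast cell markers summed to 11.8 FPKM in wild-type RNA and 46.5 FPKM in knockout RNA. Of the 6 measured, 5 were at least 2-fold higher, against 7.67% of all genes. Among them were the chymase gene Cma1 (0.965 and 7.68 FPKM) and the tryptase gene Tpsb2 (1.63 and 7.72 FPKM). Ms4a2 was listed at 0 in both libraries and Fcer1a in wild-type RNA. The Leydig hormone gene Insl3 was at 22.1 and 58.5 FPKM.

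Genes most like each of the 4 were taken as the 3 nearest by distance over log2(FPKM + 1) in the 2 libraries. For Kit they were Tnrc6b, Ccdc88a and Zfp292, at distances of 0.11 to 0.18, with transcripts of 17333, 9262 and 9977 nt. For Sall1 they were Krit1, Vps13a and Cep350, at 0.03 to 0.08, with 6352, 11164 and 13307 nt. Zbtb16 had Xpot, Malat1 and Tpd52l2 nearest, at 0.07 to 0.09. Sall4 had Cdt1, Khsrp and Gm7367, at 0.004 to 0.01. The nearest genes of Kit and Sall1 thus all have longer transcripts than Kit (5181 nt) and Sall1 (5257 nt). With 2 libraries, likeness means a similar level in each and no more.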

How the data were processed

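Poly(A) RNA was fragmented, copied with random primers and read as paired ends, per the labels' protocols, which describe no step that marks the strand. The submitters' processing notes name CASAVA 1.9, TopHat2 2.0.8, Cufflinks 2.1.1 and mm10, without settings. The authors deposited per transcript an FPKM, its bounds, a coverage and a mark of full read support, used as deposited.

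RefSeq identifiers were given symbols by accession (28942 of 30079), by the files' gene names (205) and through GENCODE M21 (174 by its RefSeq table, 710 by exon overlap), and 48 stayed unnamed. Models joined the gene with most shared exon bases on their strand, and those without a strand only with a share of 0.5 or more. Gene values are sums, compared with a pseudocount of 1 where 1 library reached 1 FPKM. The exon level averages, over RefSeq exon bases, the summed FPKM of transcripts covering each base.

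The genes and lists were chosen with earlier results of these data known. Named were the 4 genes with their transcripts, up to 4 genes of each list by absolute ratio and further genes where a list is described, and the 3 nearest genes. Not every gene with a large ratio in its list was named, as with Rhox5 and Amh among the Sertoli cell markers. The computation (Python 3.11.15, numpy 2.4.6, pandas 2.3.3) was tested on simulated data. Levels over coding bases and over transcript ends were alternatives added after seeing the data.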

Additional observations from a re-analysis of the deposited data

How the results depend on the processing

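Kit and Zbtb16 stayed lower in the knockout library under all 12 alternatives, Sall1 under 10 of 12, and Sall4 was lower under 4 of 12. Some alternatives could not change the direction, so these counts overstate how far it was tried. Another pseudocount keeps the sign, and admitting models of any length added none to these genes. RefSeq transcripts only left Kit as it was, since no model was assembled there. The 3′ end level equalled the main value for all 4 genes. With RefSeq transcripts only, and with the highest RefSeq transcript, the log2 ratio of Sall1 was 0.85 and that of Zbtb16 -4.71, since assembled models then drop out. Those settings gave 0.49 and -0.96 for Sall4, and the highest transcript gave -4.02 for Kit. The highest transcript was the same one in both libraries. It was NM_175303 for Sall4 (32.8 and 16.4 FPKM) and NM_021099 for Kit (15.3 and 0 FPKM). In knockout RNA other forms were higher, NM_201396 at 30.1 FPKM and NM_001122733 at 5.93 FPKM. For Sall4 the exon level gave -0.24, coding bases -0.65, the 5′ end -0.54 and centring 0.0456. For Zbtb16 the exon level gave -1.33, coding bases -1.96, the 5′ end -2.45, centring -1.17 and upper-quartile scaling -1.16. A pseudocount of 5 gave -1.05 for Sall1 and -1.29 for Kit.

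Of all genes, 1060 were at least 2-fold higher and 483 lower, so 68.7% were higher. The counts were 415 and 160 with a pseudocount of 5, 569 and 200 with a filter of 10 FPKM, 673 and 748 (47.4% higher) after centring, and 736 and 710 (50.9%) with upper-quartile scaling. RefSeq transcripts only gave 1436 and 1392 (50.8%), and the highest RefSeq transcript 1506 and 1436 (51.2%). The exon level gave 673 and 407, the coverage attribute 2073 and 639, and the 5′ end 730 and 971 (42.9%). The cause of these shifts was not tested. No paired analysis was possible because each genotype had 1 library. Depth is unknown, so no counting interval could be given.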
